A study of Mus musculus with 2 samples.

Results

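The genes described here encode the enzymes and transporters that carry glucose into bone marrow neutrophils and through glycolysis, lactate export, glycogen storage and the pentose phosphate pathway. Of 45 genes listed by name, 41 had a probe set that the platform annotation pairs with exactly 1 symbol, out of 18193 genes named in this way across the series. A gene-level value was available for 40 of the 41, from 87 probe sets, and the only single-symbol probe sets of Gapdh were 3 control probe sets. Another 3 probe sets name Gapdh together with other symbols and were not read. The annotation used here paired no probe set with Gpi1, Pfkfb1, Eno1 or G6pdx, which are not analysed here. Neutrophils labelled Jdp2 KO (Jdp2-/-) and neutrophils labelled Jdp2 WT were measured on 1 Affymetrix array each, 2 arrays in all. Jdp2 encodes a leucine-zipper repressor of the AP-1 and ATF group. Both groups came from mice of the C57BL/6 /129/J mixed background, and cells had been sorted from marrow for CD11b and Ly6G at low Ly6C. The sources used here do not give the age or sex of the mice, the form of the Jdp2 deletion or how many mice stand behind an array. With 1 array per genotype there is no spread between mice and no p-value, and precision is limited by having so few arrays.

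Neutrophils draw most of their energy from glycolysis and hold few mitochondria. Glucose enters through facilitative transporters, is trapped by hexokinases, is committed at phosphofructokinase and ends as pyruvate, which lactate dehydrogenase turns to lactate for export by monocarboxylate carriers. Glycogen stores let the cell work where glucose is scarce, and the pentose phosphate pathway supplies the NADPH that the oxidative burst spends. The transcription factor Hif1a is known to drive many of the glycolytic genes.

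Values are log2 signals of the brightest probe set of a gene unless stated otherwise, and differences are Jdp2 KO minus Jdp2 WT on the log2 scale. A gene passed the level filter when its higher value reached the median of its array, 5.67 for Jdp2 KO and 5.65 for Jdp2 WT, which 11168 genes did. The Jdp2 transcript was not lower in the array labelled Jdp2 KO, where its brighter probe set read 12.38, against 11.997 in Jdp2 WT, and its other probe set read 5.40 against 5.24. Where these probes lie relative to the deletion was not stated, so they leave the labels unchecked, and directions refer to the arrays as labelled. Defining neutrophil genes were strong on both arrays: the 10 markers that passed, of 12 listed, averaged 13.53 in Jdp2 KO and 13.57 in Jdp2 WT. Several of them read near the array maxima (14.56 and 14.54), where differences can be compressed. Single markers differed by as much as -0.43 for Itgam, which encodes the CD11b used in the sort, and -0.30 for Csf3r, the receptor of granulocyte growth factor. The 3′ control probe set of Gapdh exceeded the 5′ one by 0.64 in Jdp2 KO and by 0.63 in Jdp2 WT, so this measure of RNA integrity was close on both arrays.

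Of the 40 genes with a value, 38 passed the level filter. Their differences were small and lay mostly below 0: 27 were below 0 and 11 above, a share of 71.1% below 0, where 55.1% of all passing genes were below 0. The median was -0.18, with the middle 50% between -0.35 and 0.05, and that of all passing genes was -0.04, with the middle 50% between -0.27 and 0.20. A 2-fold difference was reached by 1 gene in each direction, Slc16a1 higher and Pfkm lower in Jdp2 KO, 2.63% each, where 3.06% of passing genes were at least 2-fold higher and 2.33% at least 2-fold lower. These shares are near the background. At 1.5-fold, 5 genes (13.2%) were lower in Jdp2 KO, namely Pfkm, Pfkfb2, Gys1, Ldha and Pgm1, beside a background of 8.86%, and Slc16a1 alone (2.63%) was higher, beside a background of 8.49%. Pfkm passed the filter only through its Jdp2 WT value, which all but fixes its sign. With its Jdp2 KO value raised to the array median it came to 1.02-fold, so nothing is read from its place in these counts.

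The genes with strong signal showed the lean below 0 at small size. For the 23 genes with a mean signal of at least 10, differences ran from -0.68 to 0.14 with a median of -0.17, and 18 of them (78.3%) were below 0. Among all 3138 genes at that signal, 57.8% were below 0 and the median was -0.03. As a measure of disagreement between probe sets, the differences at probe sets of the same gene varied among themselves with an SD of 0.36 (4867 genes). This SD is pooled over passing probe sets of every signal level and holds no spread between mice, so it does not give the error of a difference between genotypes. Of the 38 genes, 27 lay within that SD of 0, 9 (23.7%) were lower in Jdp2 KO by more than it, beside 18.3% of passing genes, and 2 (5.26%) were higher by more than it, beside 15.7%. The 9 were Pfkm, Pfkfb2, Gys1, Ldha, Pgm1, Hk2, Slc16a3, Pdk3 and Gbe1, and the 2 were Slc16a1 and Pygb. Of the 9, Pfkm passed the level filter only through its Jdp2 WT value, so nothing is read from its place among them. In bulk RNA, fewer cells of a type and less RNA per cell cannot be told apart.

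**Figure D1:**
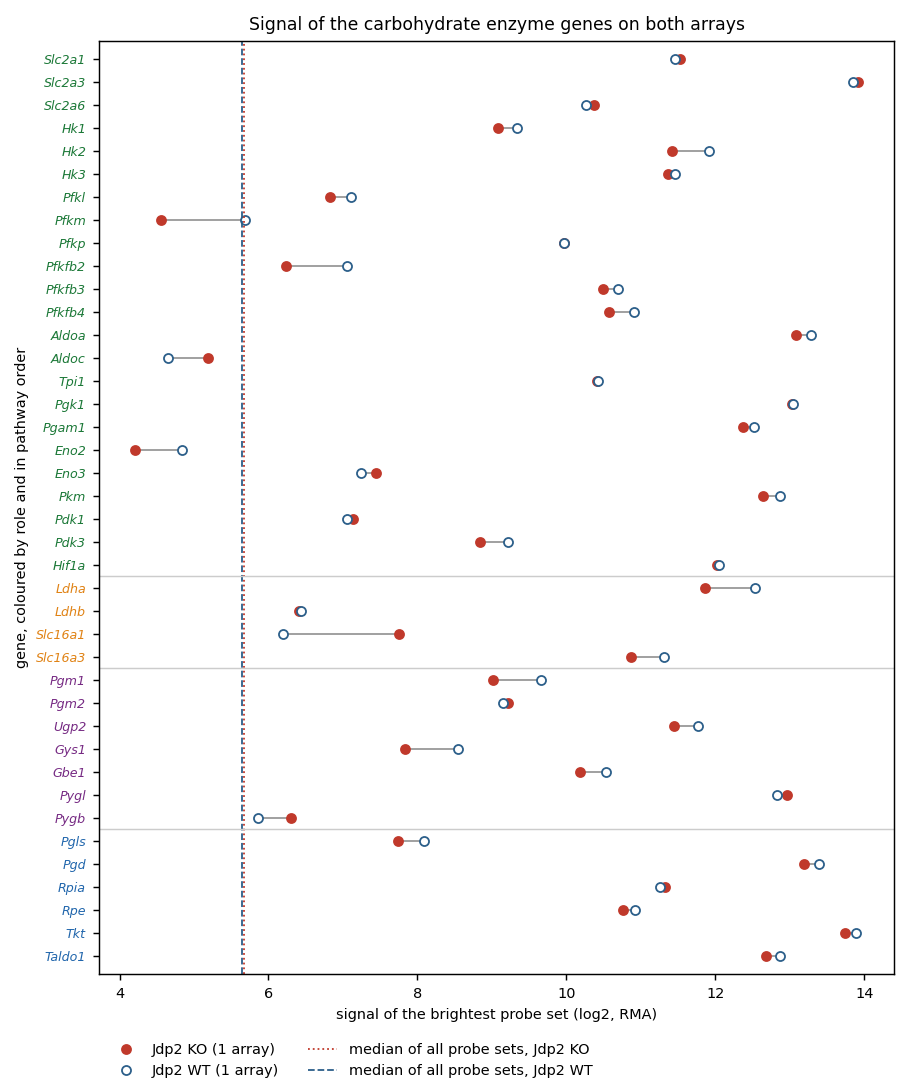
Signal (log2, RMA) of the brightest probe set of each of 40 carbohydrate genes, in pathway order from glucose uptake at the top to the pentose phosphate pathway at the bottom. Filled points are the Jdp2 KO array, open points the Jdp2 WT array, and the vertical lines are the array medians (5.67 and 5.65). Most pairs nearly coincide, with the widest gaps at Slc16a1 (7.75 against 6.20) and Pfkm (4.55 against 5.69).

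Transcripts of the glucose transporters differed little between the arrays at their brightest probe sets. Slc2a1, encoding the widely expressed transporter GLUT1, read 11.53 in Jdp2 KO and 11.46 in Jdp2 WT, and its 3 probe sets differed by 0.02 to 0.07. Slc2a3, encoding the high-affinity transporter GLUT3, read 13.92 against 13.86, near the array maxima, where differences can be compressed. A weaker probe set of Slc2a3 pointed the other way, at 8.32 against 8.98, a difference of -0.66. It was the brightest Slc2a3 probe set once those ending in _x_at and _s_at were left out, so no direction is given for Slc2a3. Slc2a6, encoding GLUT6, a transporter of lysosomal membranes, read 10.37 against 10.26. The differences at the brightest probe sets of these transporters, 0.07, 0.06 and 0.10, were all inside the SD between probe sets.

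Hexokinases, which phosphorylate glucose and so trap it in the cell, lay below 0. Hk2, the inducible form, read 11.42 in Jdp2 KO and 11.92 in Jdp2 WT, a difference of -0.50 or 1.41-fold lower. Hk1 read 9.08 against 9.34, a difference of -0.27, and its weaker probe set read 5.55 against 6.68, a difference of -1.13. The weaker Hk1 probe set passed the filter only through its Jdp2 WT value, which all but fixes its sign. With its Jdp2 KO value raised to the array median it came to 2.03-fold, and its direction is not counted as agreement. Hk3, the form typical of myeloid cells, read 11.37 against 11.46, and both of its probe sets lay between -0.09 and -0.07.

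Phosphofructokinase subunits, which catalyse the committed step, did not move alike. Pfkp, the platelet-type subunit, read 9.97 in Jdp2 KO and 9.97 in Jdp2 WT, with a difference of 0.00 that changed sign under another scaling of the arrays. Its other probe sets differed by 0.32 and -0.99. The probe set at -0.99 passed only through its Jdp2 WT value, which all but fixes its sign. With its Jdp2 KO value raised to the array median it came to 1.46-fold. As the brightest probe set gave no stable sign, no direction is given for Pfkp. Pfkl, the liver-type subunit, read 6.83 against 7.11, and its 3 probe sets lay between -1.05 and -0.28. The weaker Pfkl probe sets passed only through their Jdp2 WT values. Pfkm, the muscle-type subunit, read 4.55 against 5.69, a difference of -1.14 or 2.20-fold lower, from its only probe set. The Jdp2 KO value lay under the array median, so Pfkm passed only through its Jdp2 WT value, which all but fixes its sign. Raising the Jdp2 KO value to that median left a difference of 1.02-fold, so the size of the Pfkm difference also rests on weak signal.

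The Pfkfb genes encode bifunctional enzymes that make and break fructose 2,6-bisphosphate, the activator of phosphofructokinase. Pfkfb2 read 6.24 in Jdp2 KO and 7.05 in Jdp2 WT, a difference of -0.81 or 1.76-fold lower. Its other passing probe set, which passed only through its Jdp2 WT value, gave -0.56. The remaining pair, which did not pass, gave -0.01 and -0.33. Pfkfb4 read 10.57 against 10.91, a difference of -0.35. Pfkfb3, whose product strongly favours synthesis of the activator, read 10.49 against 10.69, a difference of -0.20, while its weaker probe set read 6.76 against 5.78, a difference of 0.98. The probe sets of Pfkfb3 therefore opposed each other, and their mean was 0.39.

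The enzymes from aldolase to pyruvate kinase differed by at most 0.22 at the brightest probe set of each gene that passed. Aldoa, the main aldolase of most tissues, read 13.08 in Jdp2 KO and 13.29 in Jdp2 WT, and 4 of its 5 probe sets lay between -0.23 and -0.18 with the weakest at 0.21. Tpi1, encoding triosephosphate isomerase, read 10.41 against 10.42, a difference of -0.01 that was above 0 after quantile or loess normalisation. Gapdh, encoding the dehydrogenase that makes glycolytic NADH, was read by its control probe sets at 13.87 against 13.95 (3′), 13.30 against 13.48 (middle) and 13.23 against 13.32 (5′). These 3 values were outside the counts above. Pgk1, encoding the kinase that makes the pathway's earliest ATP, read 13.03 against 13.05. Pgam1, encoding phosphoglycerate mutase, read 12.37 against 12.52, and Pkm, encoding pyruvate kinase, read 12.65 against 12.87, a difference of -0.22. Eno3, encoding the muscle-type enolase, read 7.45 against 7.25 and was the member of this stretch with a difference above 0, at 0.20.

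Aldoc and Eno2, the brain-type aldolase and enolase, did not pass the level filter. Aldoc read 5.19 in Jdp2 KO and 4.66 in Jdp2 WT, and Eno2 read 4.21 against 4.84. Both values of both genes lay under the array medians, where background makes up part of the signal, so no direction is given for them.

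Regulators at the exit of glycolysis and above it gave mixed values. Pdk1, a kinase that shuts pyruvate dehydrogenase and so holds pyruvate back from mitochondria, read 7.14 in Jdp2 KO and 7.06 in Jdp2 WT. A second Pdk1 probe set read 5.86 against 4.98, a difference of 0.88, but passed only through its Jdp2 KO value. With the Jdp2 WT value raised to the array median it came to 1.16-fold. The Pdk1 probe sets that did not pass gave 0.48 and -0.30. Pdk3, a kinase of the same family, read 8.84 against 9.21, a difference of -0.37, just beyond the SD between probe sets. Hif1a read 12.02 against 12.05 at its brightest probe set, and its 4 probe sets lay between -0.37 and 0.10. Over the 21 passing genes of glucose uptake and glycolysis with these regulators, the median difference was -0.14, 15 were below 0 and 6 above.

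**Figure D2:**
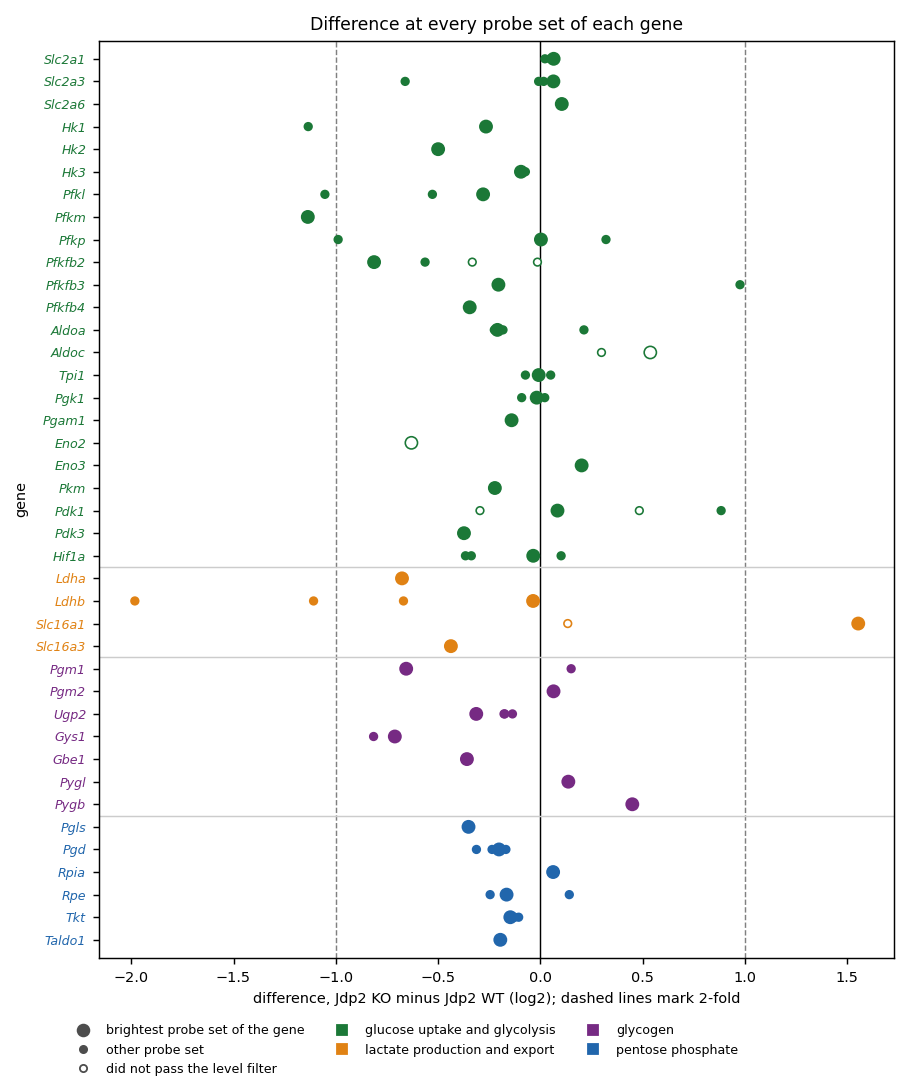
Difference between the arrays (Jdp2 KO minus Jdp2 WT, log2) at each of the 87 probe sets of the carbohydrate genes. Large points are the brightest probe set of a gene, small points the others, and open points those that did not pass the level filter; dashed lines mark 2-fold. Probe sets of Ugp2, Pgd and Tkt lie close together, and those of Ldhb, Pfkp and Pfkfb3 are spread widely.

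Lactate production and export held the widest contrast among the 4 groups of genes. Ldha, encoding the lactate dehydrogenase subunit that favours lactate formation, read 11.86 in Jdp2 KO and 12.54 in Jdp2 WT, a difference of -0.68 or 1.60-fold lower. It was the lowest difference among the 23 genes with a mean signal of at least 10. Slc16a3, encoding MCT4, the carrier that exports lactate from glycolytic cells, read 10.87 against 11.31, a difference of -0.44. Slc16a1, encoding MCT1, a high-affinity carrier that moves lactate and pyruvate in either direction, read 7.75 against 6.20, a difference of 1.55 or 2.94-fold higher. The related carriers thus differed in opposite directions. Both Slc16a1 values lay above the array medians, and the second Slc16a1 probe set, which did not pass, read 3.93 against 3.80.

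Ldhb, encoding the other lactate dehydrogenase subunit, was the gene whose probe sets disagreed most. Its brightest probe set read 6.40 in Jdp2 KO and 6.44 in Jdp2 WT. Its other probe sets read 5.79 against 6.46, 5.44 against 6.55 and 4.70 against 6.68, which are differences of -0.67, -1.11 and -1.98. The probe sets spread over 1.70 in Jdp2 KO and read within 0.24 of each other in Jdp2 WT. All 4 lay below 0. The probe sets at -1.11 and -1.98 passed only through their Jdp2 WT values, which all but fixes their sign. With the Jdp2 KO values raised to the array median, they came to 1.84-fold and 2.03-fold. Their direction is not counted as agreement. The probe sets with both values above the array medians differed by -0.04 and -0.67, so the size was not shared.

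The promoters of Ldha, Slc16a3 and Slc16a1 are shown because these genes hold the contrast in direction, with that of Gys1, lower in Jdp2 KO, beside them. Ldha has 2 annotated windows, of which the upstream one is shown. Sequences are from RefSeq on GRCm38.p6, run from 250 bases before to 50 bases after the annotated start of the gene, and are written 5′ to 3′. Capitals mark ACGTG and GCGTG, the cores bound by hypoxia-inducible factors, TGANTCA, the AP-1 motif, and TGACGTCA, the cAMP response element that AP-1 and ATF proteins also bind, each searched on both strands.
Ldha promoter, chr7:46845554-46845853, + strand: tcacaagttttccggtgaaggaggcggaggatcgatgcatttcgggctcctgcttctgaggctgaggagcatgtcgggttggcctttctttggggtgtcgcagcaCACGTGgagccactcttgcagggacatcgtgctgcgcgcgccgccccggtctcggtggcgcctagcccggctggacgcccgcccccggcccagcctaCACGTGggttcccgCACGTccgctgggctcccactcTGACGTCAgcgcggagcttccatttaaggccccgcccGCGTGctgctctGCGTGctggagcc
Slc16a3 promoter, chr11:120948817-120949116, + strand: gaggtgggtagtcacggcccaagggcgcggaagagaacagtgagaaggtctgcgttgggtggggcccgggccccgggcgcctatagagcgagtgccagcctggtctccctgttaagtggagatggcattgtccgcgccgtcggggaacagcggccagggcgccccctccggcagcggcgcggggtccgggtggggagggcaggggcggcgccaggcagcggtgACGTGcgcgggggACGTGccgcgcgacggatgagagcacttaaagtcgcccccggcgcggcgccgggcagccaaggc
Slc16a1 promoter, chr3:104638414-104638713, + strand: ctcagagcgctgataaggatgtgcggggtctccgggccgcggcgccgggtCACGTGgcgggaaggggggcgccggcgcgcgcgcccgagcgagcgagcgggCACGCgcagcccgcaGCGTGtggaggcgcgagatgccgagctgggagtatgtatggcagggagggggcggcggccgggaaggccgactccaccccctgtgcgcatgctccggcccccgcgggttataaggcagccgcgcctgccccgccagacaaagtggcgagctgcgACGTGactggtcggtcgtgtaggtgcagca
Gys1 promoter, chr7:45434589-45434888, + strand: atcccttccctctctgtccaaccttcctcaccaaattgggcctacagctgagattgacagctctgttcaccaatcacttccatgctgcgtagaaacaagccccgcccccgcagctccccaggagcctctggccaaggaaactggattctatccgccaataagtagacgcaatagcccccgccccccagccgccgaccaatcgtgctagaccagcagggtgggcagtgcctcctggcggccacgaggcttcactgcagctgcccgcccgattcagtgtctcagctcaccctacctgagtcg

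The upstream Ldha window held TGACGTCA 12 bases before the start, 5 matches to ACGTG and 2 to GCGTG. Since the E box CACGTG holds ACGTG on both strands, the pair of E boxes in this window account for 4 of the 5. The other Ldha window held 2 matches to GCGTG and none to the other motifs. The window of Slc16a3, lower in Jdp2 KO, held 2 matches to ACGTG, at 14 and 27 bases before the start. The window of Slc16a1, higher in Jdp2 KO, held 3 matches to ACGTG and 2 to GCGTG, and that of Gys1 held none of the motifs.

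Promoter windows matched 44 of the 45 listed genes, with 64 windows, since some genes have several annotated starts. A hypoxia core, ACGTG or GCGTG, was in 48 of the 64 windows, and 43.8% of all 32851 windows of the same length held it. Some windows of the same gene overlap and share matches, as in Aldoa, Eno1 and Pfkm. Counted by gene, 38 of the 44 had a core in some window, beside 46.7% of all 27025 genes with a window. The windows of these genes were richer in G and C, with a median of 60.5%, against 52.7% for all windows, and this share bears on how often such letters occur. TGACGTCA was in 1 window, that of Ldha, beside 1.79% of all windows, and TGANTCA in 1 window, of Aldoa, beside 7.81%. CACGTG was in 6 windows, beside 7.15% of all. Of the 27 passing genes with a difference below 0, 23 had a core in some window, and so did 10 of the 10 with a window among the 11 above 0, so the core was found on both sides of 0. These matches describe the letters and are not sites of binding.

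Glycogen genes lay on both sides of 0. Gys1, encoding glycogen synthase, read 7.83 in Jdp2 KO and 8.55 in Jdp2 WT, a difference of -0.71 or 1.64-fold lower. Its other probe set gave -0.82, but passed only through its Jdp2 WT value. With the Jdp2 KO value raised to the array median, that probe set came to 1.31-fold. Gbe1, encoding the branching enzyme, read 10.18 against 10.54, a difference of -0.36. Ugp2, encoding the enzyme that makes UDP-glucose, read 11.45 against 11.76, and its 5 probe sets lay between -0.32 and -0.14. Of the phosphorylases that break glycogen down, Pygl, the liver-type form, read 12.97 against 12.83, a difference of 0.14, and Pygb, the brain-type form, read 6.31 against 5.86, a difference of 0.45. Glycogen genes outside these, named after their values were seen, included the primer gene Gyg, which differed by 0.22. The phosphorylase kinase subunit genes Phkb and Phkg2 differed by -0.28 and -0.17. The differences of Gyg, Phkb and Phkg2 were all inside the SD between probe sets. A split between synthesis and breakdown was not tested.

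The phosphoglucomutase genes, whose products join glycogen to glycolysis, were split. Pgm1 read 9.01 in Jdp2 KO and 9.67 in Jdp2 WT, a difference of -0.66 or 1.58-fold lower, while its weaker probe set gave 0.15. Pgm2, whose product acts mainly on pentose phosphates, read 9.22 against 9.16. Over the 7 glycogen genes, the median difference was -0.31, with 4 below 0 and 3 above. Among them, Gys1, Pgm1, Gbe1 and Pygb lay beyond the SD between probe sets, and none reached 2-fold.

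Pentose phosphate genes differed by little and mostly in the same direction. Pgd, encoding the dehydrogenase that yields the second NADPH of the oxidative branch, read 13.19 in Jdp2 KO and 13.39 in Jdp2 WT, and its 4 probe sets lay between -0.31 and -0.17. Pgls, encoding the lactonase ahead of it, read 7.74 against 8.09, a difference of -0.35. Tkt, encoding transketolase, read 13.74 against 13.89, and its 3 probe sets lay between -0.15 and -0.11. Taldo1, encoding transaldolase, read 12.68 against 12.87, a difference of -0.20. Rpe, encoding the ribulose phosphate epimerase, read 10.75 against 10.92, with a weak probe set at 0.14, and Rpia, encoding the isomerase beside it, read 11.32 against 11.26. Of the 6 passing genes, 5 were below 0 and the median was -0.18, and each of the 6 lay within the SD between probe sets.

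**Figure D3:**
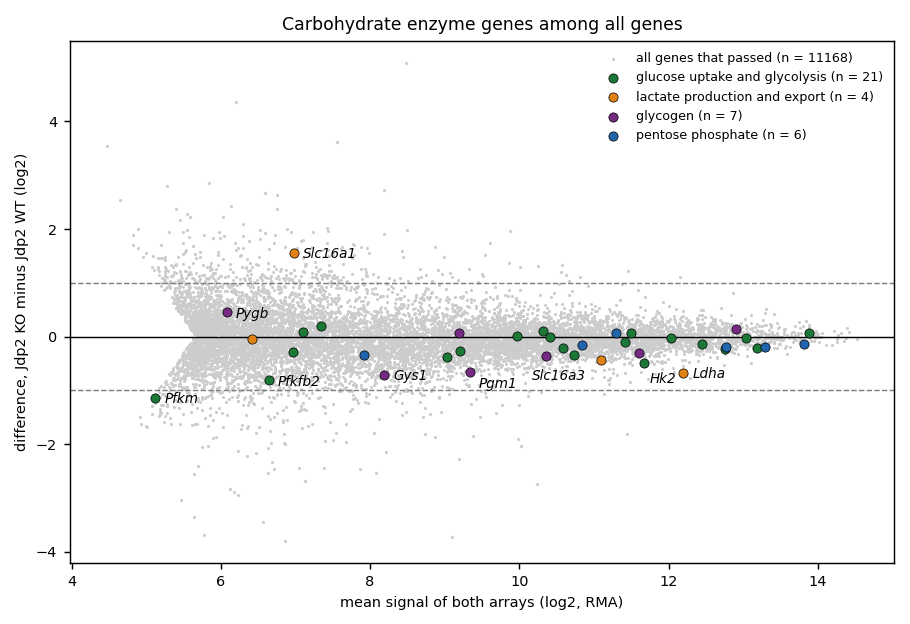
Difference between the arrays (Jdp2 KO minus Jdp2 WT, log2) against mean signal (log2) for 11168 passing genes in grey and the 38 carbohydrate genes in colour by group, with dashed lines at 2-fold. Slc16a1 (1.55) and Pfkm (-1.14) lie beyond 2-fold, and most coloured points at a mean signal of at least 10 lie just under 0.

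Agreement between probe sets set how far single genes could be read. Of the 20 genes with over 1 passing probe set, 9 had all of them below 0, 2 had all above 0 and 9 had both signs. Pfkp counted as having both signs only through a probe set that passed by its Jdp2 WT value alone. The genes with all passing probe sets below 0 were Hk1, Hk3, Pfkl, Pfkfb2, Ldhb, Ugp2, Gys1, Pgd and Tkt. In Hk1, Pfkl, Pfkfb2, Ldhb and Gys1, this agreement includes probe sets that passed only through their Jdp2 WT value. Passing in that way all but fixes a sign below 0, so agreement in these genes is not read as support. The genes with all passing probe sets above 0 were Slc2a1 and Pdk1, and the weaker of those of Pdk1 passed only through its Jdp2 KO value. In 8 genes the passing probe sets spanned over 0.5, namely Slc2a3, Hk1, Pfkl, Pfkp, Pfkfb3, Ldhb, Pdk1 and Pgm1. In Hk1, Pfkl, Pfkp and Pdk1 this span rests on probe sets that passed through the value of 1 array only, so it is not read as disagreement. The span of Ldhb also includes such probe sets. Counted by probe set, 56 of the 79 that passed (70.9%) were below 0, beside 56.4% of all passing probe sets. Of the same 79, 5 were at least 2-fold lower in Jdp2 KO (6.33%), beside 2.33% of all passing probe sets, and they belong to Ldhb (2), Hk1, Pfkl and Pfkm. All 5 passed the filter only through their Jdp2 WT value, and with the Jdp2 KO value raised to its array median they came to between 1.02-fold and 2.03-fold, so nothing is read from this share. A single probe set, of Slc16a1, was at least 2-fold higher (1.27%), beside 2.81%.

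Other carbohydrate genes outside the named enzymes were set beside them. Of 50 such genes, 36 passed the filter, 25 of them (69.4%) were below 0, and the median was -0.12, where 55.1% of all passing genes were below 0 and their median was -0.04. Got1, encoding the cytosolic aspartate aminotransferase of the malate shuttle, read 7.70 in Jdp2 KO and 8.82 in Jdp2 WT, a difference of -1.12. Dlat, encoding the acetyltransferase subunit of pyruvate dehydrogenase, read 5.84 against 6.94, a difference of -1.10, and its other passing probe set gave -0.75. These 2 genes (5.56%) were at least 2-fold lower, beside 2.33% of passing genes, and none of the 36 was at least 2-fold higher, beside 3.06%. G6pc3, encoding the glucose 6-phosphatase whose loss causes neutropenia in humans, read 5.39 against 6.13, a difference of -0.74 or 1.38-fold once its Jdp2 KO value is raised to the median of that array. Epm2a, encoding the glycogen phosphatase laforin, differed by 0.70, or 1.07-fold once its Jdp2 WT value is raised likewise. Bsg, encoding the chaperone that MCT1 and MCT4 need at the membrane and chosen after its value was seen, read 8.83 against 9.42, a difference of -0.59.

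Hypoxia-inducible genes and regulators of the hypoxia response outside glycolysis had 17 passing members of 22 listed. Of these, 14 (82.4%) were below 0, beside 55.1% of passing genes, and the median was -0.16, beside -0.04. Some of the 14 lay close to 0, among them Egln1 (-0.001), Vegfa (-0.02), Bnip3 (-0.06) and Vhl (-0.08), named after their values were seen. The list mixes induced genes with regulators, so the share gives no direction of the hypoxia response. Ankrd37, a known target of hypoxia-inducible factors, read 5.85 in Jdp2 KO and 6.99 in Jdp2 WT, a difference of -1.14. Hif1an, encoding the asparaginyl hydroxylase that restrains Hif1a, read 7.61 against 8.51, a difference of -0.90. Ddit4, which answers to hypoxia and to other stresses, read 12.07 against 10.85, a difference of 1.22. P4ha1, encoding a collagen prolyl hydroxylase, differed by 0.58, but its 2 passing probe sets opposed each other at 0.58 and -0.26. At 2-fold, 1 gene was higher and 1 lower (5.88% each), beside 3.06% and 2.33% of passing genes.

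Markers of some other cells were higher in Jdp2 KO, while most of the carbohydrate genes lay below 0. All 6 genes of the primary granule stage, an early step of neutrophil development, were at least 2-fold higher in Jdp2 KO, beside 3.06% of passing genes. Their mean signal was 9.49, against 6.48 in Jdp2 WT. Ctsg and Prtn3 passed only through their Jdp2 KO values, and came to 6.64-fold and 3.06-fold with their Jdp2 WT values raised to the array median. Mpo, encoding myeloperoxidase, read 11.02 against 5.93. Of 15 listed monocyte and macrophage genes, 13 passed, with a mean signal of 8.18 in Jdp2 KO and 7.02 in Jdp2 WT. All 13 were above 0 and 10 (76.9%) were at least 2-fold higher, beside 44.8% and 3.06% of passing genes. Some passed only through their Jdp2 KO value, which all but fixes their sign. Of these, F13a1, Ms4a6c and C1qa came to 3.25-fold, 1.76-fold and 1.71-fold with the Jdp2 WT value raised. C1qc, Fcgr1 and Cx3cr1, named after their values were seen, passed in the same way and came to 1.78-fold, 1.77-fold and 1.19-fold. The counts of 13 and 10 hold such genes, some of them under 2-fold once raised, so nothing is read from these shares. Irf8, named after its value was seen, did not pass and lay at -0.39. F13a1, encoding a subunit of coagulation factor XIII, read 7.35 against 4.92, and Mrc1, encoding the mannose receptor, read 8.78 against 7.13. All 6 listed platelet genes passed, and their mean signal was 8.90 against 8.08. Of them, 4 (66.7%) were above 0 and 3 (50%) at least 2-fold higher, beside 44.8% and 3.06% of passing genes. The platelet integrin genes Itga2b (-0.34) and Itgb3 (-0.20), named after their values were seen, lay below 0.

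B cell markers that passed (4 of 7 listed) averaged 6.96 in Jdp2 KO and 6.66 in Jdp2 WT, with Ighm at -0.93 and the other 3 above 0. The 3 passing probe sets of Ighm ran from -1.45 to 0.07, so no direction is given for Ighm. Igll1 passed only through its Jdp2 KO value, which all but fixes its sign. With its Jdp2 WT value raised to the array median it came to 1.60-fold. T and NK cell markers (5 of 7) averaged 7.19 against 6.97, with Cd8a at -0.66 and the other 4 above 0. Cd8a passed only through its Jdp2 WT value, and came to 1.21-fold with its Jdp2 KO value raised to the array median. Of 7 erythroid genes, 5 had a value and none passed, and the globin probe sets that name several genes were not read. Slc16a1 and Pygb were higher in the array where primary granule and monocyte markers were higher, and Ldha, Gys1, Hk2 and Slc16a3 were lower in it. The part of these cells in the carbohydrate differences was not tested.

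**Figure D4:**
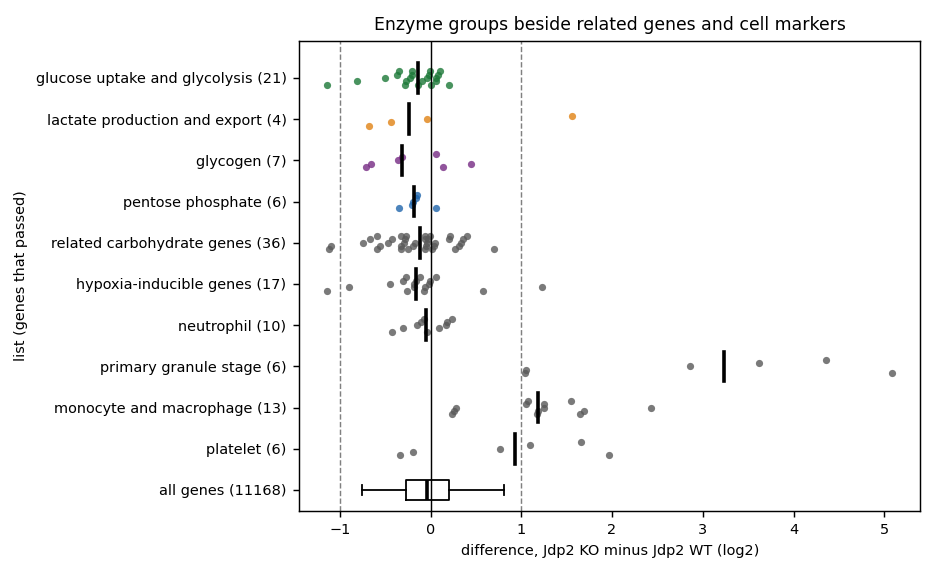
Difference between the arrays (Jdp2 KO minus Jdp2 WT, log2) for passing genes of the 4 carbohydrate groups in colour and of related genes and cell markers in grey, with the number of genes in brackets. Points are genes and black bars are medians. The box shows the median and middle 50% of all 11168 passing genes with whiskers at the 5th and 95th percentiles, and dashed lines mark 2-fold. The carbohydrate groups have medians between -0.31 and -0.14, and the primary granule and monocyte markers lie to the right of 0.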

How the data were processed

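Total RNA of sorted bone marrow neutrophils was labelled with biotin and hybridised to Affymetrix arrays, 1 for Jdp2 KO and 1 for Jdp2 WT, per the labels' protocols. The deposited values are log2 probe set summaries; RMA is the tool named in the submitters' processing notes, with no version or settings. Once sorted, the values of both arrays lay within 0.117 of each other. No detection calls come with RMA, and background in weak values shrinks folds of weak genes.

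Of 45101 probe sets, 64 controls were set aside. Of the other 45037, 34945 had 1 symbol in the platform annotation, 932 had several and 9160 were not listed. Symbols were updated by Entrez identifier against a gene table of GRCm38.p6 (34741 matched, 204 kept the annotated symbol). A gene was read by the probe set of highest mean signal, and kept when its higher value reached the median of its array. A log2 difference of 1 (2-fold) was the size rule; no test between genotypes is possible. The members and lists were chosen with earlier results of these data known. The named genes were the listed members, Jdp2 and up to 4 genes of each other list with the largest absolute difference; a few others are marked in the text as named after their values were seen. The size rule was tested on simulated data. Python 3.11.15, pandas 2.3.3, numpy 2.4.6, statsmodels 0.14.6 and matplotlib 3.10.9 were used. Alternatives were other level filters, scalings (median centring, quantile, loess with span 0.3), probe set choices, annotated symbols and a 1.5-fold rule.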

Additional observations from a re-analysis of the deposited data

How the results depend on the processing

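No paired analysis was possible because each genotype has 1 array and the labels give no replicate numbers, and for the same reason no array could be left out. The median of the 38 genes (-0.18) stayed between -0.20 and -0.15 under the alternatives, that of all passing genes between -0.08 and -0.01, and the gap between these medians, -0.14 as reported, ran from -0.17 (loess) to -0.10 (mean of all probe sets) and -0.07 (next probe set). Over the 4 scalings, 26 genes were below 0 and 10 above 0 in each, and Pfkp and Tpi1 changed sign. With the filter at the 75th percentile, 0 of 30 members were 2-fold higher and 0 lower, beside 110 and 87 of all genes, and the lactate median was -0.56 over 2 genes. With both values required at the median, 0 members were 2-fold lower, since Pfkm dropped out, beside 184 higher and 145 lower of all genes. With the mean of all probe sets, 0 members were 2-fold higher (Slc16a1 at 0.84), beside 183 higher and 171 lower of all genes, and the lactate median was -0.56. With the next probe set of each gene, 20 members had a value, 14 were below 0 (58.2% of all genes were) and 0 were 2-fold higher, beside 129 higher and 113 lower of all genes, with medians of -0.67 for lactate (1 gene) and -0.18 for glycogen (3 genes). At 1.5-fold, 5 members were lower, beside 948 higher and 989 lower of all genes. Single genes moved by over the SD between probe sets (0.36) with the mean of all probe sets (5 of 37: Hk1 -0.70, Ldhb -0.95, Pfkfb3 0.39, Pgm1 -0.25 and Slc16a1), the next probe set (5 of 20) and without _x_at and _s_at probe sets (Slc2a3 alone, -0.66). The 2-fold calls of Slc16a1 and Pfkm thus rest on 1 passing probe set each. The cause of these changes was not tested, beyond the fewer genes that stricter filters leave.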
